A study of Mus musculus with 5 samples.

Results

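The cells described here are the NP_Mrgprd neurons of the mouse dorsal root ganglion, the cluster of sensory neurons that the authors named after the receptor gene Mrgprd. They were taken as every cell that carries this name in the deposited annotation, and they numbered 900 of 3352 cells, or 26.8% of all cells and 29.5% of the 3047 neurons. The ganglia were lumbar dorsal root ganglia of C57BL/6 mice aged 18 weeks, 3 males and 2 females, all wild type and untreated, so the study held 1 condition and no treated group. Ganglia were dissociated with enzymes and cleaned on a density gradient, single cells were captured with the Chromium 3′ assay, and each RNA molecule was counted once through its unique molecular identifier (UMI). The cell names carry 5 library identifiers, numbered 1 to 5 here. Each library was taken as 1 mouse and as 1 replicate, and no library could be tied to a sex. Libraries 1 to 5 held 36, 128, 83, 190 and 463 of the 900 cells.

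Nociceptors are the sensory neurons that detect harmful or itch-provoking stimuli. The non-peptidergic class has thin, unmyelinated axons that end mainly in the outer skin and in the superficial dorsal horn of the spinal cord, and it is told apart in the mouse from the peptidergic class, which releases neuropeptides such as CGRP and substance P. Mrgprd encodes a receptor for beta-alanine, Lpar3 a receptor for lysophosphatidic acid, P2rx3 an ATP-gated cation channel, and Scn11a the sodium channel Nav1.9. Neurons that carry Mrgprd are known for roles in mechanical pain and in itch.

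The DNA just upstream of these genes is shown because the levels of Mrgprd, Lpar3 and Scn11a mark the cells. Of 5 genes looked up, the 4 markers and Agtr1a (the gene furthest above the other neurons), 3 had an entry in the RefSeq promoter table (mouse build GRCm38.p6). The 250 bases before the annotated start of each gene are printed 5′ to 3′ on the strand of the gene, with every CG pair in capitals. The Mrgprd window is chr7:145314585-145314834 on the plus strand, the Lpar3 window chr3:146220711-146220960 on the plus strand, and the Scn11a window chr9:119825457-119825706 on the minus strand.
Mrgprd: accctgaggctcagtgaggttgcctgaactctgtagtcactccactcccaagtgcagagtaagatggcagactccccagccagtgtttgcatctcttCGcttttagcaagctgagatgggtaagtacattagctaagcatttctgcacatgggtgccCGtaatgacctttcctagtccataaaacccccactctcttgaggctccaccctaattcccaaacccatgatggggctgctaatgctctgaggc
Lpar3: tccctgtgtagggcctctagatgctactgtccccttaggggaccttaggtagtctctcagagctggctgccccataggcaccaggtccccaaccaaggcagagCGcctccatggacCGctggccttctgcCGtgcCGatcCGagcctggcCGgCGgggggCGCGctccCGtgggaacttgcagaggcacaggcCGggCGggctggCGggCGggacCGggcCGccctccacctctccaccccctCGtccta
Scn11a: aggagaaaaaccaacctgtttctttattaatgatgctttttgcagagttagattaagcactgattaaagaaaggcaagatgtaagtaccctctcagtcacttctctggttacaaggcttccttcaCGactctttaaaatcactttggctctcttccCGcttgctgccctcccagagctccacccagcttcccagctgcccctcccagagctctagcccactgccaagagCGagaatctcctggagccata
The Lpar3 window held 17 CG pairs, a number reached by 23.5% of the 32851 promoters in the table, where the median was 6. The Mrgprd window held 2 CG pairs and the Scn11a window 3, and 81.2% and 71.0% of promoters held at least as many. GC content was 51.2% for Mrgprd, 69.6% for Lpar3 and 48.0% for Scn11a, against a median of 52.4%. The core letters TGTGGT of the RUNX motif, searched on both strands, were in none of the 3 windows and in 14% of all windows of this length. The Mrgprd and Scn11a windows were thus alike in CG pairs and GC content, and the Lpar3 window held more of both.

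The 4 markers were counted in single cells. The authors drew and named the type from these same counts, so the shares are a description and no check of the label. After every cell was thinned to 10000 UMIs, Mrgprd was seen in 88.0% of the 900 cells, P2rx3 in 91.9%, Scn11a in 87.2% and Lpar3 in 80.7%. In satellite glia, which should lack these genes, the same thinning gave 2.41% for Mrgprd, 5.22% for P2rx3, 2.81% for Scn11a and 5.62% for Lpar3. The shares in NP_Mrgprd cells were above those in glia for all 4 genes, and the source of the UMIs in glia was not tested. A contrast with glia does not tell this type from other neuron types, some of which also held much P2rx3 and Scn11a RNA (below). Median depth before thinning was 105150 UMIs in NP_Mrgprd cells and 17729 in satellite glia. Before thinning, 836 of the 900 cells held all 4 markers, and 5 cells held at most 1 of them, with a median depth of 21037 UMIs.

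The share of neurons that were NP_Mrgprd differed between libraries. It was 25.4% in library 1 (95% exact Clopper-Pearson interval 18.4 to 33.3%), 27.2% in library 2 (23.3 to 31.5%), 22.0% in library 3 (17.9 to 26.5%), 26.5% in library 4 (23.3 to 29.9%) and 34.5% in library 5 (32.0 to 37.1%). The mean was 27.1% ± 4.61 (SD, n = 5). Library 5 was the highest, and its interval overlapped only that of library 1. The intervals cover counting error only, and the part of dissociation and the density gradient in these shares was not tested.

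NP_Mrgprd cells held more RNA molecules than the other neurons of the same library. The median cell had 138434, 129404, 93406, 109730 and 99204 UMIs in libraries 1 to 5, against a mean over libraries of 57385 ± 8265 (SD, n = 5) in the 2147 other neurons. The ratio was 1.98-fold (0.99 ± 0.16 on the log2 scale, SD, n = 5), with NP_Mrgprd higher in 5 of 5 libraries. An exact two-sided sign-flip permutation test gave p = 0.063, the smallest value that 5 libraries allow. The number of genes detected was 1.14-fold higher, and the mitochondrial share of UMIs was lower by 1.46 ± 0.418 percentage points (3.79% against 5.24%), each in 5 of 5 libraries with the same exact p of 0.063. These contrasts are with a pool of types. Over all cells, median UMIs were highest in NP_Mrgprd (105150), followed by NF2_Ntrk2.Necab2 (96530.5) and NP_Mrgpra3 (88652). Median genes were 7651 in NP_Mrgprd, below NF2_Ntrk2.Necab2 (7981.5), NF_Calb1 (7883.5) and PEP2_Htr3a.Sema5a (7687.5) and above the remaining neuron types. The median mitochondrial share was lowest in NP_Mrgprd among neuron types, with PEP3_Trpm8 next. Among the 900 cells, 43 held over 10% mitochondrial UMIs (highest 14.2%), of which 19 were in library 3. Of the 900 cells, 39 lay under 1/3 of the median depth of their own library, with a median of 22996 UMIs. Of 3345 cell barcodes, 7 occurred in 2 libraries, and 2 NP_Mrgprd cells carried such a barcode. No doublet caller was run, and 1 NP_Mrgprd cell exceeded 2 times the median UMIs of its library.

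For levels, the UMIs of the NP_Mrgprd cells of each library were summed and expressed as counts per 1e6 UMIs (CPM). A 3′ UMI count does not grow with the length of the gene. Levels below are means over 5 libraries ± SD, and log2 fold changes are given ± SE. The fold changes come from a fit that rescales the summed counts (TMM), and CPM are not rescaled. A fold change can therefore differ from the ratio of the printed CPM. Mrgprd stood at 286, 240.0, 259, 223 and 219.7 CPM in libraries 1 to 5, a mean of 245 ± 27.4 CPM. The next types were NP_Mrgpra3 (7.88 ± 8.67 CPM) and PEP1_S100a11.Tagln2 (5.27 ± 10.1 CPM). No library of another type came near the NP_Mrgprd libraries, and the lower types overlapped among themselves. In NP_Mrgpra3 the 5 libraries gave 1.96, 11.1, 21.7, 1.59 and 3.02 CPM, and in PEP1_S100a11.Tagln2 they gave 0, 23.2, 1.05, 0 and 2.11 CPM, so the second mean rested mainly on 1 library. Lpar3 stood at 289, 259, 295, 354 and 365 CPM in NP_Mrgprd, and the next type was PEP3_Trpm8 at 33.6 ± 21.9 CPM.

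P2rx3 and Scn11a were shared more widely. P2rx3 stood at 285, 306, 307, 271 and 276 CPM in NP_Mrgprd, with 172 ± 36.4 CPM in NP_Mrgpra3 and 169 ± 17.6 CPM in NP_Nts. Scn11a stood at 242, 308, 359, 213 and 239 CPM in NP_Mrgprd. In NP_Mrgpra3 it stood at 409, 313, 294, 229 and 238 CPM, a range that overlapped that of NP_Mrgprd, and in NP_Nts at 185 ± 32.0 CPM. The order of the types is a description, since the authors drew them from these same counts.

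**Figure D1:**
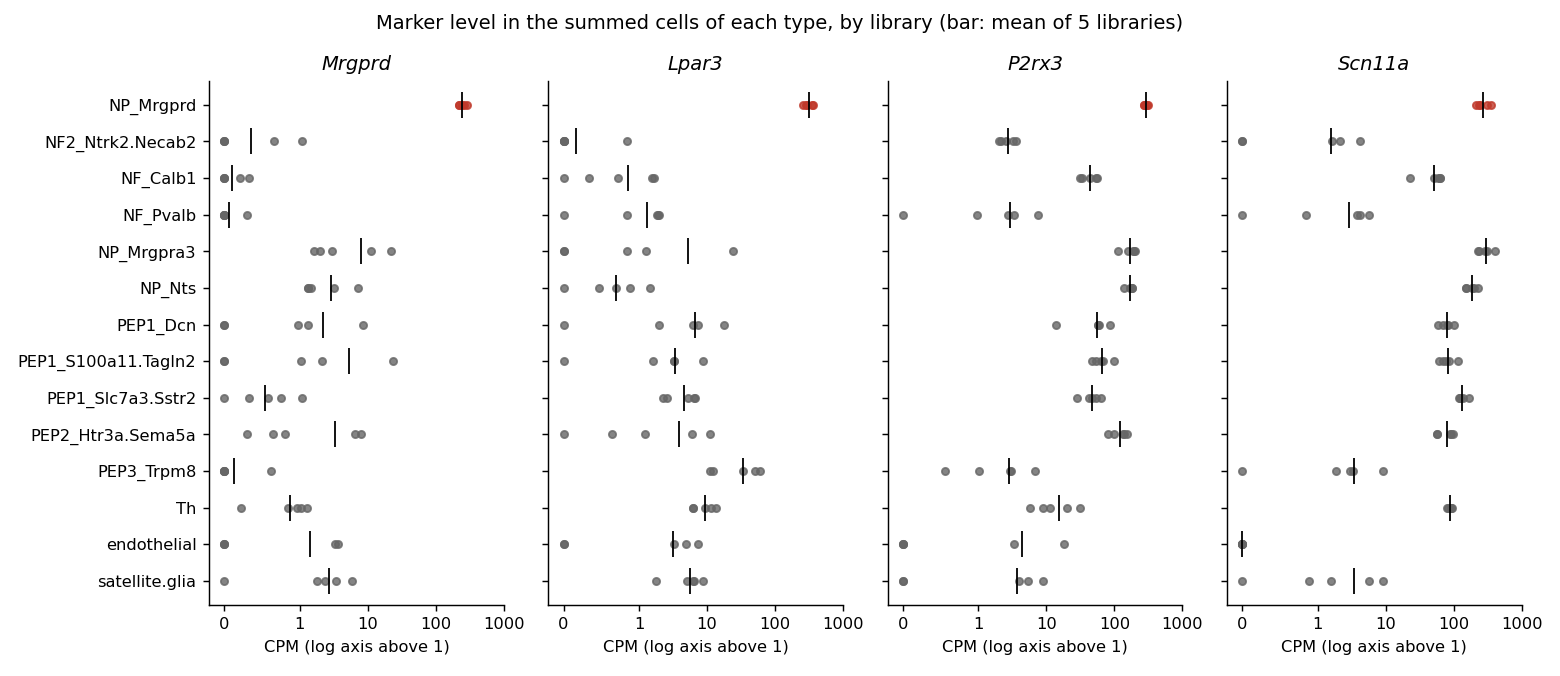
Level of the 4 marker genes in CPM (log axis above 1) in the 14 cell types, each point being 1 library and each bar the mean of 5 libraries. Mrgprd and Lpar3 stand apart in NP_Mrgprd (red), whereas Scn11a in NP_Mrgpra3 overlaps NP_Mrgprd.

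The NP_Mrgprd cells were summed within each library, and so were the cells of the 11 other neuron types. The sums of the 5 libraries were compared between these groups with edgeR's quasi-likelihood test. The fit had no term for the library, so sums from the same mouse were not paired. A gene was called when its Benjamini-Hochberg adjusted p was under 0.01 and its fold change at least 2. Of 13040 genes that passed the filter on low counts, 778 were called higher in NP_Mrgprd (5.97%) and 2571 lower (19.7%). Because the types come from the same counts, a p-value here describes how steady a difference was over 5 libraries and is no independent evidence of it. Counts and medians of a gene list cover the members that passed the filter, and they are a description. They are set against a pool of types, and a list can go another way against a single type. The median log2 fold change of all genes was -0.09.

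Markers of other cells were measured beside these results. The 7 satellite glia markers summed to 333 to 520 CPM in NP_Mrgprd and to 404 to 709 CPM in the other neurons, against at least 97321 CPM in glia. The Schwann markers summed to 584 to 664 CPM against 414 to 651 CPM, the endothelial markers to 9.02 to 12.6 CPM against 74.3 to 90.8 CPM, the fibroblast markers to 0.208 to 8.29 CPM against 1.24 to 3.01 CPM, and the immune markers to 0.208 to 1.87 CPM against 3.21 to 6.30 CPM. Glial and Schwann levels thus overlapped between the groups, and endothelial and immune levels were lower in NP_Mrgprd. Their part in the results was not tested.

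Among called genes of at least 50 CPM, Agtr1a was the furthest above the other neurons. Agtr1a, which encodes a receptor for angiotensin II, stood at 74.3, 67.6, 82.5, 82 and 75.5 CPM in libraries 1 to 5 and at 0.257 to 1.15 CPM in the other neurons (log2 fold change 7.19 ± 0.23, adjusted p = 8.14e-12 in edgeR's test). All 5 libraries lay far above the other neurons. Mrgprd followed with a log2 fold change of 6.96 ± 0.34 (adjusted p = 3.13e-10), and Lpar3 had 6.22 ± 0.21 (adjusted p = 1.25e-11). Otoa, which encodes otoancorin, stood at 69.7, 79.0, 71.7, 102 and 84.0 CPM against 0.359 to 1.91 CPM (6.86 ± 0.30). Prkcq, which encodes protein kinase C theta, stood at 126, 143, 143, 136 and 127 CPM against 1.41 to 3.22 CPM (6.11 ± 0.14). For all of these the lowest NP_Mrgprd library was above the highest library of other neurons.

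The other genes of this group were 9130204L05Rik, Serpina11, Barx2, Serping1, Ms4a3, Ly86 and Ctxn3, with log2 fold changes from 5.63 down to 4.04. Ctxn3, which encodes a small neuronal membrane protein of the cortexin family, stood at 1369.8, 1135, 1293, 1284 and 1331 CPM against 90.9 ± 23.8 CPM. Ly86, known as the MD-1 partner of an immune receptor, stood at 1265, 1354, 1000.4, 1139.8 and 1535 CPM against 81.7 ± 17.2 CPM. These were the most abundant of the group, and both were also high in NP_Mrgpra3, at 733 and 579 CPM. Barx2, a homeobox transcription factor, stood at 50.7 ± 7.68 CPM against 2.43 ± 1.21 CPM. Serping1, the C1 inhibitor of the complement system, stood at 433 ± 53.1 CPM against 21.0 ± 6.11 CPM, with 172 CPM in satellite glia.

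The 12 genes furthest below, among those with at least 50 CPM in the other neurons, had varied roles. Slc17a7, the vesicular glutamate transporter VGLUT1, stood at 0.10 to 0.936 CPM against 69.4 ± 17.7 CPM (log2 fold change -7.49 ± 0.31). Scn1a, the sodium channel Nav1.1, stood at 0.10 to 0.535 CPM against 51.2 ± 22.8 CPM (-7.33 ± 0.43). Ngfr, the low-affinity neurotrophin receptor p75, stood at 0.830, 4.04, 1.74, 2.41 and 2.19 CPM against 342 ± 72.7 CPM (-6.87 ± 0.24), which was the lowest mean of the 14 types. Atp2b2, a calcium pump of the plasma membrane, and Sv2b, a synaptic vesicle protein, had log2 fold changes of -7.24 and -7.01. Nppb and Sst, peptides of the NP_Nts type, had -7.10 and -6.83. Cpne6, Mcam, Lynx1, Atp11a and St3gal5 completed the group, with -6.91 to -6.63.

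Receptors and signalling genes known for this class were nearly all higher. Of 15 listed genes, 14 were tested, 13 were called higher and none lower, and their median log2 fold change was 3.16. The list was made of genes known in this class and holds 3 of the 4 markers, so its direction is no independent evidence. P2rx3 had a log2 fold change of 2.13 ± 0.10 (adjusted p = 2.39e-10 in edgeR's test). Grik1, a kainate receptor subunit, stood at 537, 515, 573, 477 and 518 CPM against 41.6 ± 12.5 CPM (3.89 ± 0.17). Cd55, a membrane regulator of complement, stood at 433 ± 40.0 CPM against 53.9 ± 6.81 CPM (3.23 ± 0.11). The genes of the Gq signalling path were higher by smaller steps. The G protein subunits Gna14 and Gnaq had log2 fold changes of 1.90 ± 0.21 and 1.11 ± 0.09, and the phospholipase Plcb3 had 1.36 ± 0.12. Gna11, another subunit of the same family, was not called (0.30 ± 0.08). Plxnc1, a semaphorin receptor, had 1.72 ± 0.13. Mrgprb5, a Mas-related receptor, was called higher but was rare, at 2.19 ± 0.440 CPM.

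Sodium channels were lower as a list, with Scn11a as the exception. Of 13 tested voltage-gated sodium channel genes, 1 was higher and 8 were lower, with a median of -2.51. Scn11a was at 272 ± 59.9 CPM against 101 ± 7.45 CPM (1.65 ± 0.12, adjusted p = 1.75e-08 in edgeR's test). Scn10a, which encodes Nav1.8, stood at 239 ± 30.1 CPM against 160.1 ± 8.08 CPM (0.80 ± 0.08). Scn9a, which encodes Nav1.7, stood at 246, 232, 349, 219 and 241 CPM against 251 ± 40.9 CPM (0.26 ± 0.12). Neither of them was called, although Scn10a passed the limit when the other types were weighted equally (1.09). Scn8a, the channel Nav1.6 of fast-conducting axons, stood at 1.87 to 3.30 CPM against 128 ± 43.3 CPM (-5.32 ± 0.25). The beta subunits Scn2b, Scn3b and Scn4b were lower, with log2 fold changes of -3.30, -1.78 and -4.05. NP_Mrgprd cells thus held Nav1.7, Nav1.8 and Nav1.9 RNA at over 200 CPM in every library and Nav1.1 and Nav1.6 RNA at 3.30 CPM or less. Against single types, the list was closer to even for NP_Mrgpra3, with none of 8 tested genes higher and 2 lower (median -0.15). For NP_Nts none of 8 was higher and 3 were lower (-0.47), and for Th 2 of 12 were higher and 8 lower (-2.75).

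Pacemaker and calcium channel genes had no member called higher, and potassium channel genes had both kinds. Of 5 tested genes for HCN and sodium leak channels, 4 were lower, Hcn2, Hcn4 and Nalcn among them, with Hcn2 at 5.53 ± 1.69 CPM against 38.2 ± 11.2 CPM (-2.64 ± 0.23). Of 35 tested potassium channel genes, 7 were higher and 15 lower, with a median of -0.83. The higher ones were Kcnip4 and Kcnip2, which encode partners of Kv4 channels, the two-pore channel genes Kcnk12 and Kcnk18, the calcium-activated Kcnma1, the sodium-activated Kcnt1, and Kcng2. Kcnip4 stood at 528, 489, 503, 502 and 572 CPM against 105 ± 8.38 CPM (2.53 ± 0.09). Kcnip2 stood at 178, 158, 161, 154 and 156 CPM against 35.1 ± 8.53 CPM (2.45 ± 0.14). Kcnk18, known as TRESK, stood at 27.1 ± 4.62 CPM against 7.16 ± 0.95 CPM (2.14 ± 0.13). The lower ones included Kcna1 and Kcna2, channels of myelinated axons. Kcna1 stood at 34.9 ± 5.83 CPM against 406 ± 145 CPM and Kcna2 at 29.4 ± 2.24 CPM against 187 ± 50.9 CPM.

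Of 14 tested calcium channel genes, 7 were lower and none higher, with a median of -0.76. Cacna1h, a T-type channel, stood at 0.134 to 0.622 CPM against 14.7 ± 2.29 CPM, whereas Cacna1b, the N-type channel, stood at 94.6 ± 8.21 CPM against 134 ± 8.68 CPM and was not called. Cacna1i, another T-type channel, had 1 UMI in the 900 cells against 756 in the other neurons, a ratio of pooled CPM of 550.0 with a 95% counting interval of 98.4 to 21752. Cacna1e had no UMI in the 900 cells and was at least 21.6-fold lower, with 3 UMIs over all 900 cells taken as the limit of a count of 0.

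Sensory transduction channels split in both directions, with 6 of 20 tested TRP, Piezo and acid-sensing channel genes higher, 6 lower and a median of 0.05. Trpc6, Trpc5, Trpm4, Trpv2 and Trpa1 were among the higher ones. Trpa1, a receptor for irritants, stood at 55.6, 48.2, 53.4, 46.5 and 44.6 CPM against 18.3 ± 6.33 CPM (1.65 ± 0.21), and its highest type was PEP1_Dcn at 124 CPM. Trpv1, the capsaicin and heat receptor, stood at 3.74, 11, 14.2, 4.51 and 7.54 CPM against 114 ± 21.1 CPM (-3.57 ± 0.26). The groups did not overlap for either gene. The acid-sensing channel genes Asic1 and Asic3 stood at 0.214 ± 0.0948 and 0.753 ± 0.406 CPM against 31.9 ± 4.82 and 62.2 ± 22.9 CPM. Trpm8, the cold receptor, had 1 UMI in the 900 cells and 246 in the other neurons, a ratio of 179 with a counting interval of 31.8 to 7097. Piezo2, the touch channel, stood at 212 ± 13.7 CPM against 230.0 ± 35.7 CPM and was not called.

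Of 12 tested purinergic genes, 2 were higher and 6 lower, with a median of -0.96. The higher ones were P2rx3 and Acpp, which encodes a phosphatase that makes adenosine and is used as a stain for this class. Acpp stood at 311, 336, 329, 279 and 310.4 CPM against 131 ± 23.3 CPM (1.48 ± 0.11). P2rx2, whose product can pair with that of P2rx3, stood at 0 to 0.478 CPM against 22.2 ± 8.58 CPM (-6.12 ± 0.42). P2ry1, a receptor for ADP, stood at 4.06 ± 1.36 CPM against 85.5 ± 35.3 CPM (-4.21 ± 0.29). The 2 partners P2rx3 and P2rx2 thus lay on opposite sides of the other neurons.

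Among Mas-related receptors, 5 of 8 tested genes were higher and 1 was lower, with a median of 1.5. Besides Mrgprd and Mrgprb5, these were Mrgpra1, Mrgpra2a (9.22 ± 1.11 CPM) and Mrgpra2b (21.7 ± 2.72 CPM), and the last pair is alike enough in sequence that its values are uncertain. Mrgpra3, the receptor for chloroquine, was the lower one at 0, 0.684, 0.134, 4.06 and 1.27 CPM, with library 4 the highest. Of 47 itch and inflammation receptor genes, 33 were tested, 4 were higher and 22 lower, with a median of -3.33. The higher ones were Lpar3 and the prostaglandin receptor genes Ptgdr, Ptger3 and Ptger2. Ptgdr stood at 43.4, 44.4, 38.4, 48.1 and 48.1 CPM against 9.24 ± 1.48 CPM (2.50 ± 0.12). Ptger3 stood at 8.68 ± 0.704 CPM against 1.56 ± 0.889 CPM (2.90 ± 0.24) and Ptger2 at 8.68 ± 1.56 CPM against 3.15 ± 0.314 CPM (1.74 ± 0.14). The lower ones included Il31ra and Osmr, which form the interleukin-31 receptor, the serotonin receptor genes Htr1a, Htr1d, Htr1f, Htr3a and Htr7, and the histamine receptor genes Hrh1 and Hrh3.

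Inhibitory and transmitter receptors were lower as well against this pool of other neurons. Of 12 tested opioid, cannabinoid, adrenergic, neuropeptide Y and somatostatin receptor genes, none was higher and 10 were lower, with a median of -3.74. Oprm1, the mu opioid receptor, stood at 0.581 ± 0.198 CPM against 2.41 ± 0.750 CPM (-1.88 ± 0.31). Oprk1, the kappa opioid receptor, had no UMI in the 900 cells and was at least 93.6-fold lower. Of 24 tested GABA-A and glutamate receptor genes, Grik1 was higher and 16 were lower, with a median of -1.84. Gabra4 had no UMI and was at least 35.4-fold lower. Against NP_Mrgpra3 alone, 4 of 12 tested GABA-A and glutamate receptor genes were higher and 1 was lower, with a median of 0.53. For NP_Nts, 6 of 13 were higher and 3 lower (0.93), and for Th 4 of 16 were higher and 8 lower (-1.08). The lower levels of this list were thus not seen against the other 2 NP types.

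Neuropeptides had a median log2 fold change of -4.41, with 2 of 15 tested genes higher and 12 lower. The 2 higher peptides are abundant RNAs of these cells. Nmb, neuromedin B, stood at 783, 765, 797, 851 and 826 CPM against 326 ± 43.6 CPM (1.54 ± 0.09). Calcb, which encodes beta-CGRP, stood at 739, 843, 886, 875 and 838 CPM against 342 ± 45.8 CPM (1.52 ± 0.10). Both had their highest mean of the 14 types in NP_Mrgprd. Calca, which encodes alpha-CGRP, was lower than in the other neurons and still abundant, at 1085, 1023, 1182, 808 and 952 CPM against 5062, 3719, 4150.2, 4355 and 4393 CPM (-1.88 ± 0.11). Calca and Calcb share sequence, so their values are uncertain. After thinning, Calca was seen in 97.4% of NP_Mrgprd cells and 67.9% of satellite glia, and Calcb in 95.8% and 17.7%. Tac1, the precursor of substance P, stood at 283, 232, 231, 174 and 187 CPM against 1622 ± 189 CPM (-2.65 ± 0.13), and Gal, galanin, at 2.96 ± 1.43 CPM against 355 ± 38.4 CPM (-6.48 ± 0.20). Pnoc, the nociceptin precursor, had no UMI in the 900 cells and was at least 81.7-fold lower.

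Among neurotrophic factor receptors, 1 of 12 tested genes was higher and 7 were lower, with a median of -1.65. Gfra2, the neurturin receptor, was the higher one, at 182, 182, 179, 163 and 171 CPM against 47.4 ± 14.6 CPM (2.12 ± 0.16), and its mean was higher still in Th, at 338 CPM. Its signalling partner Ret stood at 314 ± 28.8 CPM against 206 ± 40.2 CPM (0.84 ± 0.11) and was not called. Gfra3, the artemin receptor, stood at 5.95 ± 4.09 CPM against 141 ± 8.07 CPM (-4.38 ± 0.30). It was below the other neurons in every library.

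Of 23 tested transcription factors of the sensory lineage, 1 was higher and 12 were lower, with a median of -1.28. Runx1, the factor that directs the non-peptidergic fate, stood at 184, 173, 193, 173 and 159 CPM against 107 ± 9.71 CPM. In the rescaled fit it lay under the 2-fold limit (0.94 ± 0.08, adjusted p = 1.09e-07 in edgeR's test). Runx2 was the higher one but was rare, at 7.51 ± 1.54 CPM (1.97 ± 0.15). Cbfb, the shared partner of the RUNX factors, stood at 40.3, 31.4, 33.2, 26.1 and 31.0 CPM against 174 ± 19.6 CPM (-2.21 ± 0.11), the lowest mean of the 14 types. Runx1 and its partner thus lay on opposite sides of the other neurons.

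Of 39 tested genes for synaptic adhesion and axon guidance, 2 were higher, the semaphorin receptor genes Plxnc1 and Plxnd1, and 27 were lower, with a median of -2.02. Nrp1, a co-receptor for semaphorins, stood at 1.25 ± 1.06 CPM against 122 ± 22.0 CPM (-6.43 ± 0.31). Against NP_Mrgpra3 alone, 4 of 20 tested adhesion and guidance genes were higher and 7 lower, with a median of 0.13. For NP_Nts, 4 of 19 were higher and 4 lower (-0.07), and for Th 7 of 23 were higher and 9 lower (-0.51). Among 6 tested intermediate filament genes, Ina was higher than in the other neurons and Nefh and Nefm were lower. Prph, the peripherin of small neurons, stood at 6040.4, 5773, 5727, 5731 and 5657 CPM against 3742 ± 296 CPM (0.86 ± 0.08), below the 2-fold limit. Nefh, the heavy neurofilament of large neurons, stood at 124, 137, 151, 115 and 119 CPM against 1599 ± 456 CPM (-3.40 ± 0.18). Of 8 tested genes for transmitter transport and synthesis, 1 was higher and 3 were lower. Slc17a6, the glutamate transporter VGLUT2, stood at 102 ± 8.92 CPM against 186 ± 13.5 CPM and was not called. Gad1 was the higher one, at 1.07 ± 0.300 CPM. Of 23 tested immediate early and injury genes, none was higher and 8 were lower, among them the injury gene Atf3 (62.3 ± 7.31 CPM against 197 ± 16.7 CPM) and Gap43, a growth-associated protein (43.5 ± 11.1 CPM against 636 ± 48.7 CPM). Against Th alone, 5 of 17 tested genes of this list were higher, Gap43 and Jun among them, and none lower. For NP_Mrgpra3, 2 of 20 were higher and 3 lower, and for NP_Nts 2 of 20 were higher and 9 lower. The part of dissociation in these genes was not tested.

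**Figure D2:**
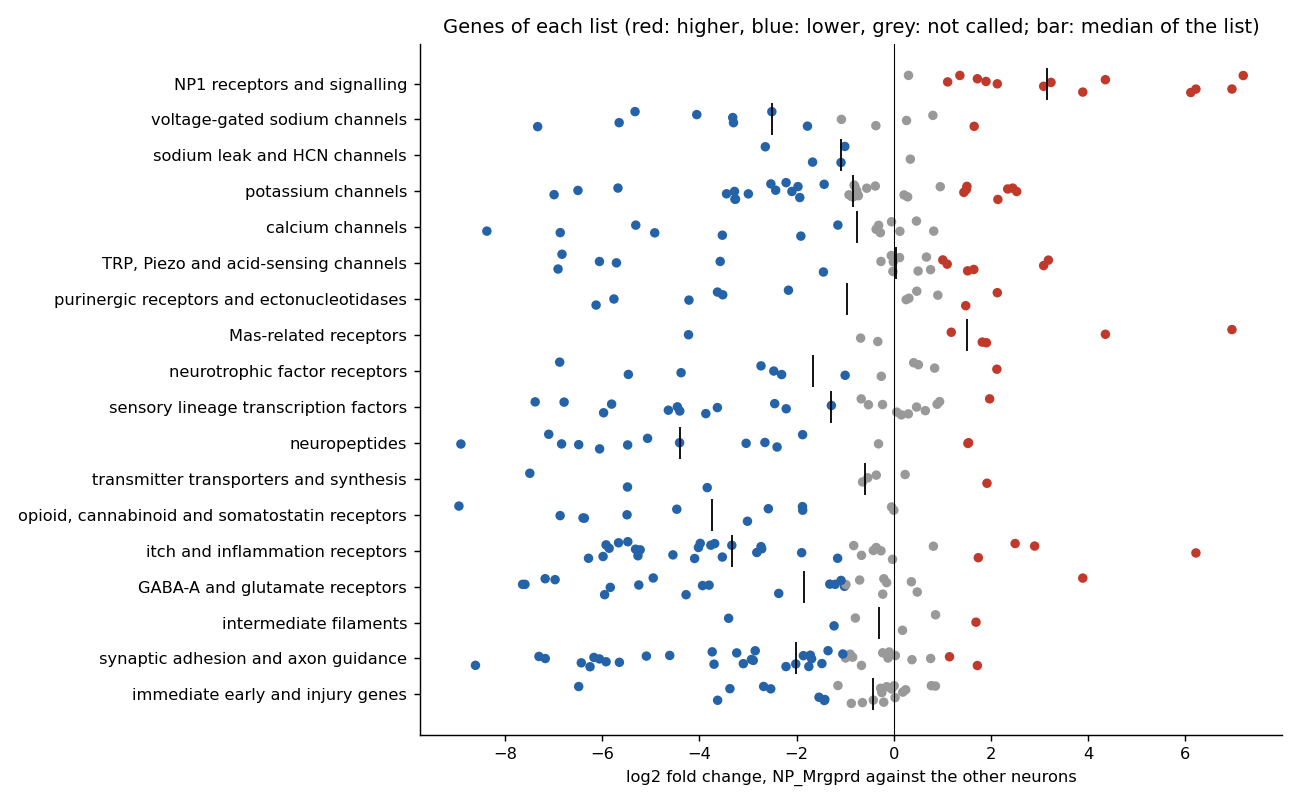
log2 fold change of NP_Mrgprd against the other neurons for the tested genes of each list, each point being 1 gene (red called higher, blue called lower, grey not called) and each bar the median of the list. The receptors and signalling genes of the class lie furthest to the right with a median of 3.16, and neuropeptides furthest to the left with a median of -4.41. Genes with few UMIs are drawn at their fitted value, which is no bound.

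The next question was which types were most like NP_Mrgprd and where it still differed from them. Over 16248 genes, log2(CPM + 1) in NP_Mrgprd correlated most with NP_Mrgpra3 of the same library (Pearson r 0.953, mean of 5 libraries), followed by NP_Nts (0.927 ± 0.0058, SD over libraries), Th (0.927 ± 0.0069), PEP1_S100a11.Tagln2 (0.924 ± 0.014) and, last among neurons, NF_Pvalb (0.839). These r values are across genes, which are no independent replicates, and the pairs share a library, so they are a description. The order of the second to the fourth lay within the spread between libraries. NP_Mrgpra3, NP_Nts and Th were compared with NP_Mrgprd in turn. They rest on fewer cells, with 4 to 51 NP_Mrgpra3, 10 to 183 NP_Nts and 15 to 61 Th cells in a library. The 3 comparisons share the NP_Mrgprd libraries, so their values stand side by side and are not independent.

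Against NP_Mrgpra3, the type that carries the chloroquine receptor, 515 of 10023 tested genes were higher in NP_Mrgprd (5.14%) and 654 were lower (6.52%). Of 13 tested receptor and signalling genes of the class, 6 were higher, Prkcq, Lpar3, Mrgprd, Agtr1a and Grik1 among them, and none lower. Among genes of at least 50 CPM, Prkcq had the largest difference, at 135 CPM against 1.36 CPM (log2 fold change 6.95 ± 0.31). Kcnab1, a potassium channel subunit, stood at 105, 121, 109.6, 117 and 132 CPM against 1.51 ± 2.88 CPM (6.49 ± 0.33), and the cadherin Cdh11 had 5.53 ± 0.36. Lpar3 had 6.16 ± 0.47, Mrgprd 5.23 ± 0.32 and Agtr1a 5.19 ± 0.35. P2rx3 differed by less than 2-fold (0.70 ± 0.12) and Scn11a had -0.11 ± 0.15 (adjusted p = 0.632), so 2 of the 4 markers were called between these types and 2 were not.

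On the other side, Mrgpra3 stood at 1.23 CPM in NP_Mrgprd and 468 ± 108 CPM in NP_Mrgpra3 (-8.20 ± 0.39), and the transcription factor Ovol2 at 0.173 CPM against 57.3 ± 16.6 CPM (-8.84 ± 0.28). Rspo1, a Wnt agonist, had -8.04 ± 0.43, Car8 -7.78 ± 0.19, the G protein regulator Rgs5 -7.66 ± 0.45 and Crip1 -7.51 ± 0.26. Calca was -3.11 ± 0.13, with 8599 ± 1625 CPM in NP_Mrgpra3. Of 29 tested potassium channel genes, 12 were higher and 4 lower, and of 16 itch and inflammation genes, 3 were higher and 9 lower. Ptger3 had no UMI in NP_Mrgpra3 and was at least 27.8-fold higher in NP_Mrgprd. Gfra2 was higher (5.04 ± 0.37), and Gfra1, Gfra3, Ngfr and Osmr were lower. The call of Gfra3 (-2.21) was lost without library 5 (-1.86). Runx1 was called here (1.58 ± 0.11).

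Against NP_Nts, the type that carries the peptides Nppb and Sst, 1154 of 10968 tested genes were higher in NP_Mrgprd (10.5%) and 1260 were lower (11.5%). Of 14 tested receptor and signalling genes of the class, 8 were higher and none lower. Grik1 led at 524 CPM against 1.06 ± 0.783 CPM (8.76 ± 0.18), followed by Otoa (8.50 ± 0.28), the cadherin Cdh1 (80.1 CPM against 0.586 ± 0.599 CPM, 8.45 ± 0.29), Lpar3 (8.44 ± 0.22), the kinase Cdk15 (8.40 ± 0.34) and Agtr1a (8.15 ± 0.22). On the other side, Nppb stood at 0.421 CPM against 628 ± 177 CPM (-9.86 ± 0.35). Npy2r, a neuropeptide Y receptor, had -9.47 ± 0.28 and Sst -9.47 ± 0.56, followed by Gm525 (-9.20), 1700011L22Rik (-8.80) and Pde4c (-8.73). Of 26 tested itch and inflammation genes, 6 were higher and 16 lower, the latter with Il31ra, Osmr, Htr1f, Cysltr2 and Hrh1 among them. Both CGRP genes were higher in NP_Mrgprd than in NP_Nts, Calca by 1.85 ± 0.36 and Calcb by 4.19 ± 0.13. Gfra2 had 7.32 ± 0.15. Of 29 tested potassium channel genes, 15 were higher and 4 lower.

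Against Th, the low-threshold mechanoreceptors that carry tyrosine hydroxylase, 962 of 10368 tested genes were higher in NP_Mrgprd (9.28%) and 1221 were lower (11.8%). Of 13 tested receptor and signalling genes of the class, 12 were higher and none lower. Of 15 tested itch and inflammation genes, 10 were higher, Osmr and Il4ra among them, and 3 lower, with a median of 1.20. The direction of that list was thus opposite to that against the pool, NP_Mrgpra3 and NP_Nts. Potassium channel genes were even, with 10 of 29 tested higher and 10 lower. Agtr1a had 7015 UMIs in NP_Mrgprd and 1 in Th, a ratio of pooled CPM of 1058 with a counting interval of 190 to 41797, and Otoa had 3 UMIs in Th, a ratio of 396 (135 to 1921). Ly86 had a log2 fold change of 8.70 ± 0.23 and Mrgprd of 8.40 ± 0.21. Gna14 stood at 182 CPM against 1.44 ± 1.79 CPM (7.05 ± 0.29) and Tmem233, a membrane protein, at 549 CPM against 5.24 ± 4.74 CPM (7.0 ± 0.33). The heat map shows both also at high levels in NP_Mrgpra3 and NP_Nts.

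Lower than in Th were Ceacam10 (0 to 0.268 CPM against 234 ± 149.8 CPM, -11.36 ± 0.63), Cd34 (-9.75 ± 0.22), the kinase Dgkk (-8.76 ± 0.35), Rgs5 (-8.57 ± 0.28) and Gpr162 (-8.55 ± 0.22). Cacna1i had 1 UMI against 748 in Th, a ratio of 4959 with a counting interval of 887 to 196140. Piezo2 was lower too (-1.59 ± 0.11), with 709.9 ± 93.6 CPM in Th. Calca (4.45 ± 0.27), P2rx3 (4.21 ± 0.26) and Scn10a (1.38 ± 0.12) were higher than in Th, whereas Calca was lower than in NP_Mrgpra3 and higher than in NP_Nts.

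**Figure D3:**
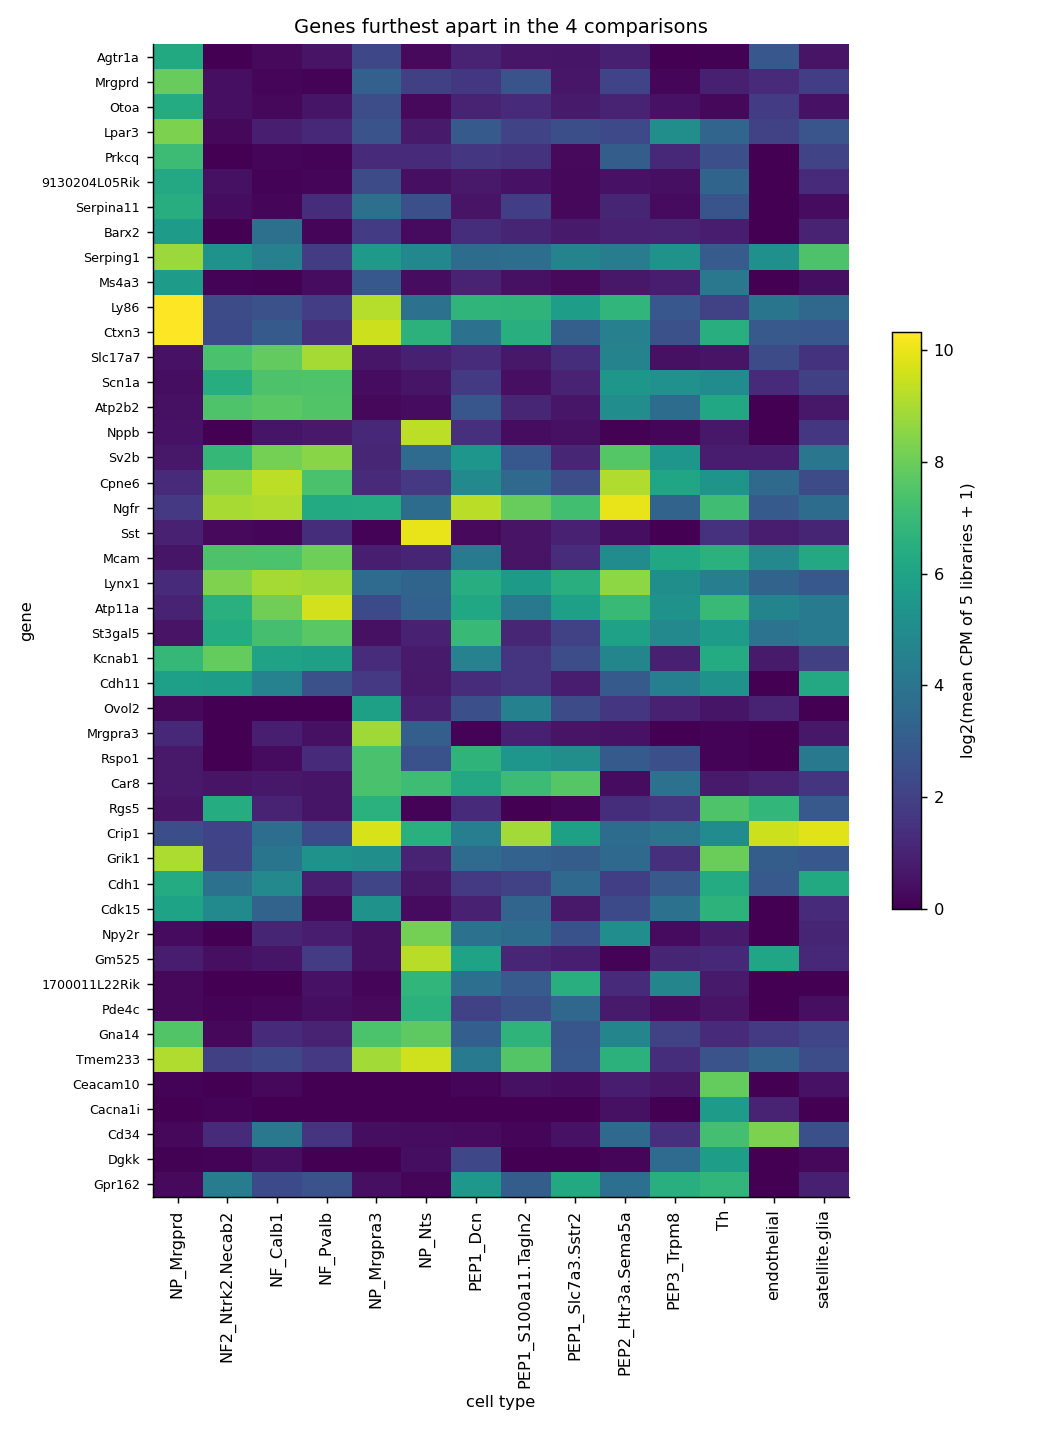
Mean CPM of 5 libraries, as log2(mean CPM + 1), for the genes furthest apart in the 4 comparisons (rows) in the 14 cell types (columns, NP_Mrgprd first). Agtr1a, Mrgprd, Otoa, Lpar3 and Prkcq are brightest in the first column, Nppb and Sst in NP_Nts, and Mrgpra3 in NP_Mrgpra3.

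The genes whose means over the 14 types were most like those of Mrgprd were Otoa (Pearson r of log2(CPM + 1) 0.927), Klk5 (0.911), 1700011I03Rik (0.880), Prkcq (0.879), Agtr1a (0.879), Serpina11 (0.858), Hal (0.856) and 9130204L05Rik (0.822). Each had its highest mean in NP_Mrgprd, from 20.7 CPM for Klk5, a kallikrein protease, to 135 CPM for Prkcq. Hal, the enzyme that breaks down histidine, stood at 17.0, 21.5, 21.7, 20.8 and 23.3 CPM in NP_Mrgprd and had no UMI in NP_Nts, where it was at least 156-fold lower. The correlations are over 14 points that share their libraries and are a description.

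Most of the genes above were alike between libraries, and some others were not. The largest spread relative to the mean was that of Ifit1, an interferon-induced gene, at 66.0, 81.8, 106, 254 and 134 CPM in libraries 1 to 5. In the other neurons it stood at 124, 87.4, 91.1, 163 and 104 CPM, with library 4 again the highest. Malat1, a nuclear non-coding RNA, stood at 15745, 15493, 25138, 7280.1 and 9273 CPM, and in the other neurons at 15078, 15093, 26562, 10560.4 and 12181 CPM, with library 3 the highest and library 4 the lowest in both. Apoe, a leading transcript of satellite glia, stood at 27.4, 161, 146, 114 and 106 CPM, with library 1 the lowest. Nmt1, an enzyme that adds a fatty acid to proteins, stood at 116, 242, 256, 75.1 and 95.4 CPM, with libraries 2 and 3 the highest. Atpaf2, the mitochondrial gene ATP8, Eef1a2, Ap2b1 and Sptan1 also had a wide spread.

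**Figure D4:**
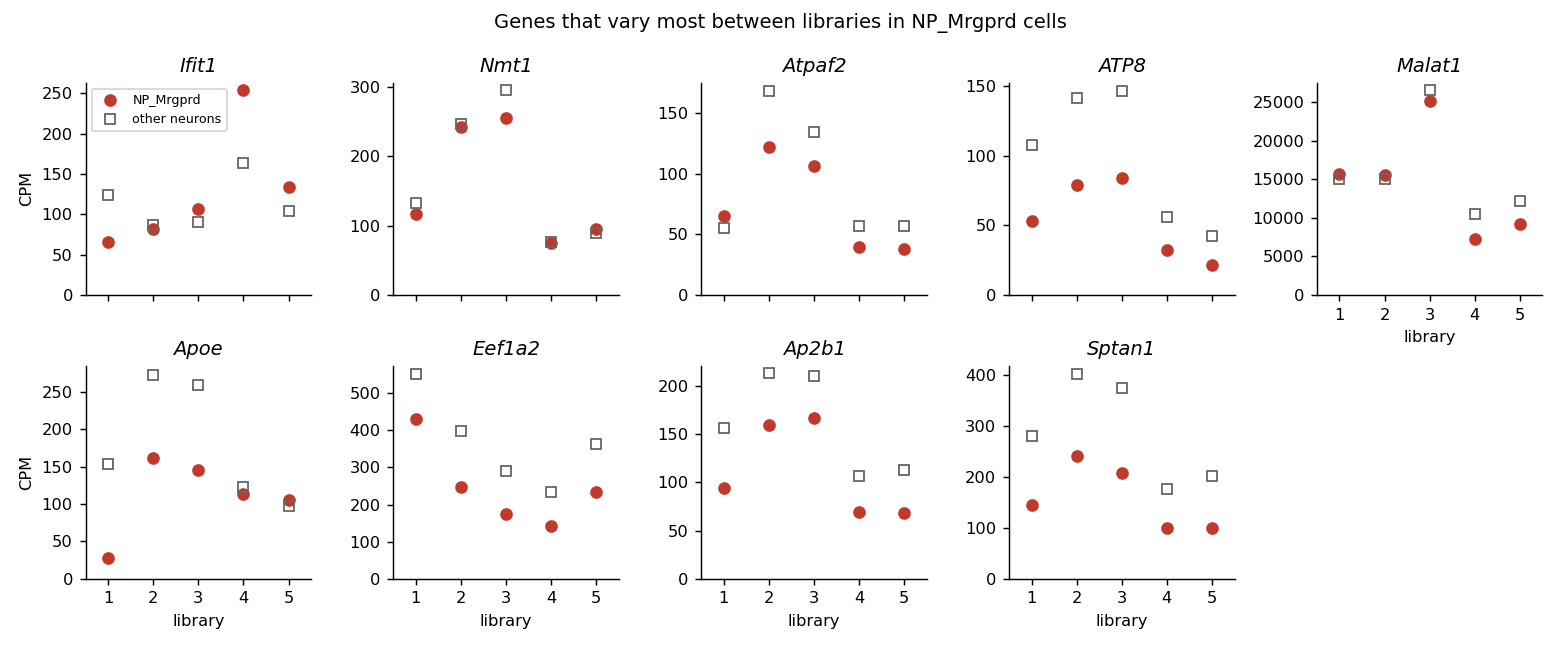
CPM by library for 9 of the 10 genes that varied most between libraries in NP_Mrgprd cells (red circles), beside the other neurons of the same library (open squares), on linear axes from 0. Ifit1 peaks in library 4 and Malat1 in library 3 in both groups.

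Between single cells thinned to 20000 UMIs (887 cells), the genes with the largest variance relative to the mean were Malat1 (ratio 269), Apoe (36.7), Tagln2 (19.0), Actb (18.4), Calca (16.7), Meg3 (16.5), Fxyd2 (16.3), Tmsb4x (14.4), Sncg (14.4) and Txn1 (12.8). Several are among the most abundant RNAs named here. Sncg, gamma-synuclein, stood at 16216 ± 657 CPM against 7015 ± 382 CPM in the other neurons, and Fxyd2, a regulator of the sodium pump, at 11131 ± 683 CPM against 3962 ± 656 CPM. Txn1, thioredoxin, stood at 3411 ± 254 CPM against 745 ± 119 CPM (2.43 ± 0.11). Across cells, Fxyd2 and Sncg rose together (median Spearman rho of 5 libraries 0.691, from 0.585 to 0.866), as did the nuclear RNAs Malat1 and Meg3 (0.605, from 0.443 to 0.774), while Meg3 ran against Sncg (-0.566). Meg3 was also higher in cells of lower depth before thinning (rho -0.443) and of higher mitochondrial UMIs (0.371), and Sncg showed the reverse (0.293 and -0.289), each with the same sign in 5 of 5 libraries. These are descriptions over cells of the same libraries that share depth and base composition, with no test.

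Tagln2, an actin-binding protein gene of the transgelin family, was spread unevenly over the NP_Mrgprd cells. Of the 887 thinned cells, 441 (49.7%) held no Tagln2 UMI, 133 held 1 to 9 and 313 (35.3%) held 10 or more, with a median of 23 in the last group. The limit of 10 was chosen after the values were seen, and no test was made on the division. Cells with 10 or more made up 61.1%, 42.1%, 38.5%, 34.2% and 31.3% of the cells of libraries 1 to 5 (41.4% ± 11.7, SD, n = 5), so both groups were present in every library. With a limit of 20 UMIs the mean share was 24.9%. Median depth was 100172 UMIs in cells with 10 or more and 109089 in cells with none, and the mitochondrial share was 3.74% and 3.45%. In the summed cells Tagln2 stood at 883, 572, 539, 505 and 429 CPM against 267 ± 53.3 CPM in the other neurons (1.36 ± 0.18). Mrgprd was at 262 ± 16.9 CPM in cells with 10 or more and at 233 ± 27.7 CPM in cells with none, and was seen in 95.8% and 98.4% of them.

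Other genes ran with Tagln2 within the type. Cells with 10 or more Tagln2 UMIs were set against cells with none on the log2(CPM + 10) scale, over 5491 genes of at least 20 CPM. A median over libraries of at least 2-fold, with the same direction in all 5, was reached by 47 higher and 24 lower genes. Some of these differed by less than 2-fold in a single library. The 47 include Tagln2 itself, which made the division. Lpar3 stood at 132 ± 42.7 CPM against 466 ± 52.0 CPM, and 63.6% of the cells with 10 or more and 99.5% of those with none held a UMI. The level of Lpar3 thus differed among cells with like levels of Mrgprd. The higher genes included Gm7271 (256 against 4.77 CPM), the cell cycle inhibitor Cdkn1a (104 against 2.97 CPM), the galectin Lgals3 (293 against 46.5 CPM) and S100a11 (283 against 54.0 CPM). The lower genes included Barx2 (10.2 against 71.1 CPM) and 9130204L05Rik (26.3 against 114 CPM). The nuclear RNAs moved with the division in 5 of 5 libraries, with Meg3 at 1630.3 CPM in cells with 10 or more against 825 CPM in cells with none, and Malat1 at 19245 against 13541 CPM. Sncg (14473 against 16869 CPM) and Fxyd2 (9705 against 11602 CPM) were lower in 5 of 5, and the part of RNA quality or nuclear share in the division was not tested.

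The peptide and marker genes differed less between these cells. Calcb stood at 515 ± 36.1 CPM in cells with 10 or more Tagln2 UMIs against 1008 ± 48.1 CPM in cells with none, and Calca at 1223 ± 287 CPM against 884 ± 176 CPM, the latter in the same direction in 4 of 5 libraries. Agtr1a stood at 46.1 ± 7.47 CPM against 105 ± 15.4 CPM, Otoa at 48.6 ± 10.5 CPM against 99.5 ± 18.1 CPM, Scn11a at 222 ± 41.4 CPM against 347 ± 85.1 CPM and P2rx3 at 253 ± 26.9 CPM against 316 ± 22.8 CPM. The means of these 4 genes were lower in cells with 10 or more. The same Tagln2 minimum was reached by 92.9% of PEP1_S100a11.Tagln2 cells, 41.5% of 65 satellite glia, 24.3% of NP_Mrgpra3 cells, 14.3% of Th cells and 1.03% of NP_Nts cells, and by 3 of 4 endothelial cells. Another neuron type, of 58 cells, reached it in 39.7%, and the remaining types of neurons in up to 24.5%, so NP_Mrgprd, at 35.3%, was below 2 other neuron types. Apoe, the glial transcript, stood at 167 ± 87.2 CPM in cells with 10 or more and 101 ± 69.7 CPM in cells with none, and the part of glial RNA in the division was not tested.

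**Figure D5:**
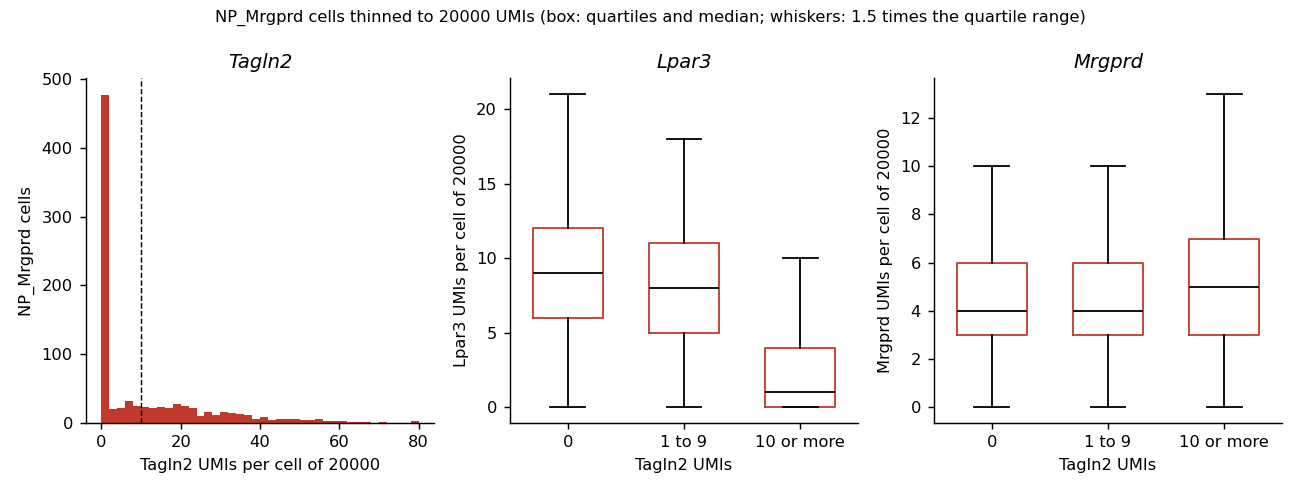
NP_Mrgprd cells thinned to 20000 UMIs, with the number of cells by Tagln2 UMIs (left, dashed line at 10) and UMIs per cell of Lpar3 and Mrgprd in cells with 0, 1 to 9 and 10 or more Tagln2 UMIs (boxes show quartiles and median, and whiskers reach 1.5 times the quartile range). Lpar3 is lower in the last group, while Mrgprd differs little.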

How the data were processed

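The deposited file is a matrix of UMI counts of genes in cells with an annotation of cell types; per the labels and the study's methods, the authors made the counts with Cell Ranger on mouse build mm10 and clustered the cells with Seurat. The authors kept cells with 500 to 15000 genes and at most 10% mitochondrial UMIs, per the study's methods, but the deposited matrix holds 43 NP_Mrgprd cells above 10%, counted here from the mitochondrial genes of the matrix. Of the matrix, 17267 gene rows were used and 4 rows of vector or other non-mouse sequence were left out. Libraries held 13050375 to 88886919 UMIs in all cells, which sets the counting error of rare genes.

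UMIs of NP_Mrgprd cells, of the other neurons and of 3 of the most like types were summed per library and fitted with edgeR 4.0.16 in R 4.3.3 (filterByExpr, TMM, quasi-likelihood test, Benjamini-Hochberg). Genes with 0 to 3 UMIs in 1 group are given as bounds or as ratios with counting intervals, and no list median differed when such genes were put at their bound. Shares of cells with a UMI come from cells thinned to 10000 UMIs, and the spread between cells from cells thinned to 20000 UMIs. On simulated counts with 200 changed genes at a log2 fold change of 2, the fit recovered 97.5% against the other neurons (13040 genes), 90.5% against NP_Mrgpra3 (10023), 95.0% against NP_Nts (10968) and 95.0% against Th (10368). Both sums of a library come from the same mouse, and their deviations correlated with r of 0.150 to 0.517, 0.0505 to 0.295, 0.163 to 0.454 and 0.0679 to 0.418 in these comparisons.

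Genes named are those of the lists by role; the 12 highest and 12 lowest against the other neurons, and 6 and 6 against each type, among called genes of at least 50 CPM in the higher group with the same direction in 5 libraries; the 10 with the largest spread between libraries and between cells; and the 8 most like Mrgprd among genes of at least 20 CPM. Some genes that the rule names are not reported here. Xist, Tsix and chromosome Y genes were left out of the spread. The genes named with the Tagln2 division were chosen after its values were seen. The members and lists were chosen with earlier results of these data known. Alternatives were DESeq2 1.42.0, no filter on low counts, the library as a block, cell filters, equal weight of the other types, dropping sums of few cells and leaving out each library. Scripts used Python 3.11.15.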

Additional observations from a re-analysis of the deposited data

Results flagged for a closer look

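Among 90 gene levels in NP_Mrgprd (genes of the lists with a mean of at least 20 CPM), 3 had 1 library whose gap to the nearest other library exceeded 0.71 of the whole range, the 95% limit of Dixon's test for 5 values. Chance flags about 1 in 20 groups. Scn9a, the sodium channel Nav1.7, was highest in library 3 at 349 CPM, where the median of the other 4 libraries was 237 CPM. Kcnip2, a partner of Kv4 channels, was highest in library 1 at 178 CPM, against a median of 157 CPM. Kcnt1, the sodium-activated potassium channel, was highest in library 2 at 108 CPM, against a median of 87.4 CPM.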

How the results depend on the processing

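Under the alternatives run for the counts of called genes (DESeq2, no filter on low counts, the library as a block, leaving out cells by depth or mitochondrial share, weighting the other types equally, a limit of 0.05 on the adjusted p, dropping sums of few cells and leaving out each library), 92 of 92 counts stayed within 1.5 times the value reported. Leaving out 1 library gave 745 to 847 genes higher and 2428 to 2629 lower against the other neurons, 436 to 559 and 593 to 716 against NP_Mrgpra3, 1082 to 1179 and 1170 to 1328 against NP_Nts, and 854 to 1082 and 1214 to 1351 against Th. With the replicate block (the library as a term, a pairing within mice), the counts were 784 and 2589, 525 and 664, 1184 and 1311, and 975 and 1225. Of 4125 alternative values for 393 genes in a comparison, 4086 kept their direction and their side of the threshold, 30 no longer passed it (13 values), 9 newly passed it (4 values) and none reversed. With means over cells in place of medians, the difference in UMIs per cell was 0.78 on the log2 scale and that in genes per cell 0.15, and with equal weight of the other types the latter was 0.15, and the cause was not tested. Without 1 library these were 0.96 to 1.06 and 0.18 to 0.20, the mitochondrial difference was -1.61 to -1.35 points and the share of neurons 25.3 to 28.4%. The share of cells with 10 or more Tagln2 UMIs was 51.2% with a limit of 5 UMIs, 24.9% with 20 and 40.5% after thinning to 10000 UMIs with a limit of 5, all chosen after seeing the data. Depth limits genes of few UMIs, which are given as bounds.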
